A study of Mus musculus with 6 samples.

Results

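The 8 genes examined here, *Myh11*, *Myl9*, *Mylk*, *Cnn1*, *Tagln*, *Smtn*, *Lmod1* and *Myocd*, encode the contractile apparatus of smooth muscle and its transcriptional coactivator. They were taken by name from the 56262 genes of the count table, each matched to 1 Ensembl gene. RNA-seq counts came from leg muscle of mouse fetuses at embryonic day 18.5, with 3 WT and 3 *SYISL* KO samples. The KO fetuses lack *SYISL*, a long noncoding RNA, and the comparison asks how its loss affects fetal leg muscle. Parents of each fetus had the same genotype, so the genotypes of mother and fetus cannot be told apart, and the sources used here do not say whether a sample was 1 fetus or a pool. The samples were labelled as replicates without a statement of separate litters, so p-values measure the spread between these samples, which may be technical in part.

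Smooth muscle lines arteries and veins and contracts without sarcomeres. When calcium rises, the myosin light chain kinase phosphorylates the regulatory light chain and lets myosin pull on actin. Calponin, transgelin, smoothelin and leiomodin bind the actin filament. Most genes of this program are driven by serum response factor (SRF), which binds the CArG box together with the coactivator myocardin. In skeletal muscle, this program is known mainly from the walls of blood vessels, while light chain and actin-binding paralogues also serve muscle fibers, fibroblasts and other cells.

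The libraries held 82054811 to 102233181 counts. Levels are given as CPM (counts over the library total, scaled by TMM), and fold changes are KO over WT from edgeR on the log2 scale. A gene was said to rise or fall at an adjusted p under 0.05 in the quasi-likelihood test of edgeR, adjusted by Benjamini-Hochberg over the 22071 genes tested, and to be called when the change also exceeded 1.5-fold. Of the 10 skeletal muscle marker genes, 9 were called higher in KO, with a summed level of 20081 to 22484 CPM in WT and 42262 to 51524 CPM in KO. *Myh8*, the perinatal myosin heavy chain and most abundant of them, had a log2 fold change of 1.59, and *Acta1*, the skeletal actin, of 1.47. *Myh3*, the marker not called, did not pass the test (-0.04, edgeR adjusted p = 0.651). The 9 include *Tnnc2*, whose counts have a limit given below with *Tagln*. The 12 keratinocyte markers were all called lower, with a sum of 16825, 25247 and 18825 CPM in the WT libraries and 720 to 828 CPM in KO, led by *Krt77* (-10.24) and *Krt10* (-6.20), with *Krt1* (-5.47) the most abundant. The 8 adipocyte markers were all called higher, led by *Cfd* (4.21) and *Cidec* (4.05), with *Fabp4* (1.18) the most abundant. The WT libraries thus held far more epidermal transcripts, and the part of this difference in the results was not tested. In bulk tissue, fewer cells of a type and less RNA per cell cannot be told apart.

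All 8 genes passed the filter on low counts. Of these, 5 rose in KO (*Myh11*, *Lmod1*, *Myl9*, *Mylk* and *Smtn*), 0 fell, and 3 did not pass the test (*Myocd*, *Tagln* and *Cnn1*). Among all genes tested, 45.0% passed this threshold, 21.9% as higher and 23.1% as lower. Of the 8 genes, *Myh11* alone was also called at 1.5-fold, as higher, where 16.7% of all genes tested were called, 8.31% as higher and 8.39% as lower. At an unadjusted p under 0.05, edgeR gave 6 higher and 0 lower. The shares of all genes at this looser threshold were not computed. They are at least the 21.9% higher and 23.1% lower above, and nothing is concluded about the 8 genes from this count. The median log2 fold change of the 8 genes was 0.44, against -0.0041 for all genes tested. In 5 genes the WT and KO values did not overlap, which was also the case for 55.9% of all genes tested.

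**Figure D1:**
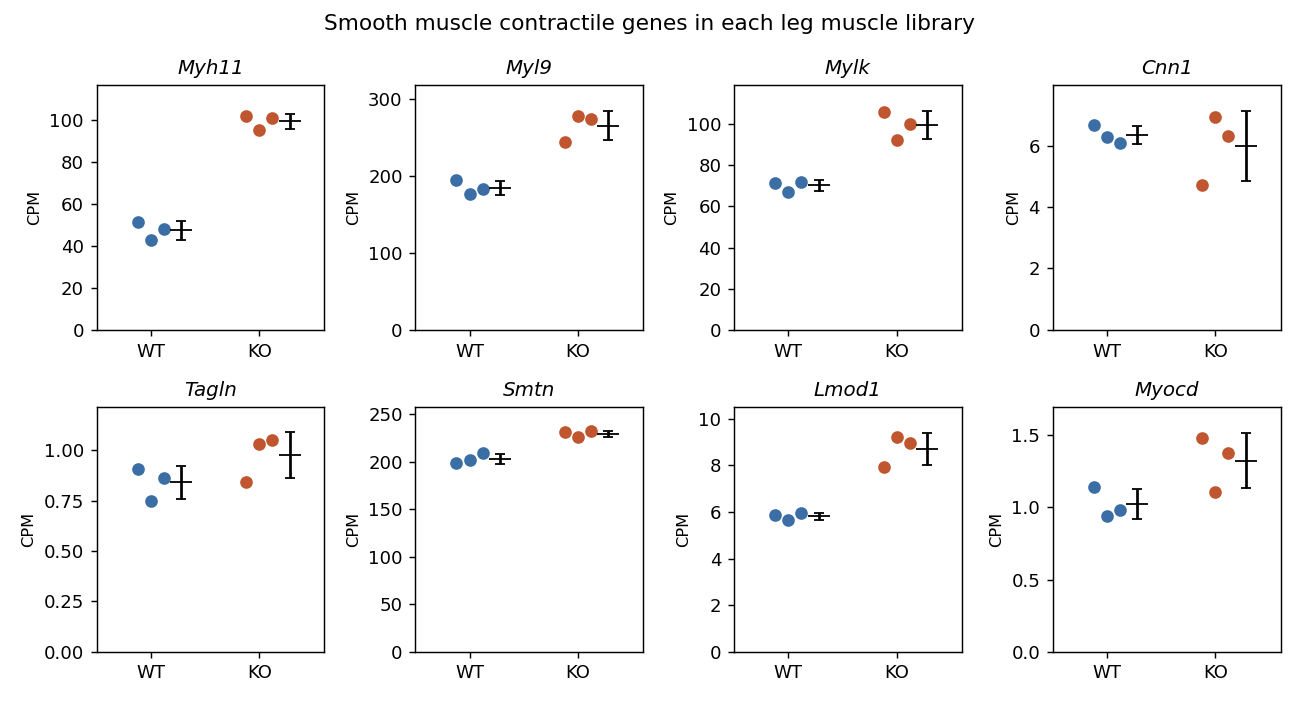
CPM of each gene (vertical axis, from 0) in the 3 WT (blue) and 3 KO (orange) libraries, with the mean and SD in black. WT and KO points are separate for *Myh11*, *Myl9*, *Mylk*, *Smtn* and *Lmod1*, and overlap for *Cnn1*, *Tagln* and *Myocd*.

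*Myh11* encodes the smooth muscle myosin heavy chain, the motor that defines the contractile smooth muscle cell. It lies on chromosome 16 of mm10 from 14194535 to 14291372, on the minus strand (ENSMUSG00000018830.10). It had 4878, 3522 and 5086 counts in WT and 9605, 9083 and 9836 counts in KO, or 51.5, 42.6 and 48.2 CPM against 102, 95.3 and 101 CPM. Every KO library stood well above every WT library, and WT replicate 2, the WT library with the most keratinocyte transcripts, was the lowest. WT averaged 47.4 ± 4.50 CPM and KO 99.6 ± 3.81 CPM (errors are SD with n = 3 here and throughout), a 2.10-fold rise (log2 fold change 1.07, standard error 0.065, edgeR adjusted p = 1.55e-06). Without WT replicate 2 the log2 fold change was 1.0. This library was also the lowest WT library for *Myl9*, *Mylk*, *Lmod1*, *Tagln* and *Myocd*, but not for *Smtn* or *Cnn1*.

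*Myl9* encodes the regulatory light chain of smooth muscle myosin, the target of the light chain kinase, and lies on chromosome 2 from 156775420 to 156781658, on the plus strand (ENSMUSG00000067818.6). Its levels were 194, 176 and 183 CPM in WT and 244, 278 and 273 CPM in KO. The groups did not overlap, and KO replicate 1 was the lowest of the KO libraries. It rose from 184 ± 8.74 to 265 ± 18.1 CPM, 1.44-fold (log2 fold change 0.52, standard error 0.059, edgeR adjusted p = 8.65e-05). This was below the 1.5-fold threshold, and the value passed it with upper-quartile scaling (0.59). That scaling moved the median log2 fold change of all genes tested from -0.0041 to 0.064.

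*Mylk*, the gene of myosin light chain kinase, gives a smooth muscle form, a longer nonmuscle form and telokin, which counts per gene do not separate. It lies on chromosome 16 from 34745210 to 35002420, on the plus strand (ENSMUSG00000022836.11). The WT libraries had 71.4, 67.1 and 72.0 CPM and the KO libraries 106, 92.4 and 99.8 CPM, without overlap. Its mean rose from 70.2 ± 2.69 to 99.4 ± 6.73 CPM, 1.42-fold (log2 fold change 0.50, standard error 0.054, edgeR adjusted p = 6.07e-05). *Mylk* and *Myl9* thus rose by similar amounts, while their order across the KO libraries differed, with KO replicate 1 highest for *Mylk* and lowest for *Myl9*.

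Among the actin-binding genes, *Lmod1* and *Smtn* rose. *Lmod1* encodes leiomodin 1, which nucleates actin filaments in smooth muscle, and lies on chromosome 1 from 135324807 to 135368065 (ENSMUSG00000048096.7). It had 5.85, 5.65 and 5.96 CPM in WT and 7.93, 9.22 and 8.95 CPM in KO. The narrow WT range lay below every KO value, and the mean rose from 5.82 ± 0.156 to 8.70 ± 0.684 CPM (log2 fold change 0.58, standard error 0.075, edgeR adjusted p = 2.08e-04). The change of 1.49-fold lay at the edge of the 1.5-fold threshold and crossed it without WT replicate 3 (0.60), without KO replicate 1 (0.65) and with upper-quartile scaling (0.65). With the last, the median of all genes tested was 0.064.

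*Smtn* encodes smoothelin, an actin-binding protein of contractile smooth muscle cells, and lies on chromosome 11 from 3517523 to 3540612 (ENSMUSG00000020439.17). Its levels were 199, 202 and 209 CPM in WT and 231, 226 and 232 CPM in KO. The groups were close but separate, with means of 203 ± 5.06 and 230 ± 3.01 CPM (log2 fold change 0.18, standard error 0.040, edgeR adjusted p = 0.00536). With library size as the only scaling, *Smtn* no longer passed the test (log2 fold change 0.11, edgeR adjusted p = 0.0818). That scaling moved the median log2 fold change of all genes tested to -0.073.

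*Cnn1* encodes calponin 1, an inhibitor of the actomyosin ATPase that is a common marker of differentiated smooth muscle, and lies on chromosome 9 from 22099216 to 22109630 (ENSMUSG00000001349.5). Its levels were 6.68, 6.27 and 6.09 CPM in WT and 4.73, 6.93 and 6.32 CPM in KO. KO replicate 1 was the lowest of the 6 libraries and KO replicate 2 the highest. The log2 fold change of -0.08 did not pass the test (95% interval -0.37 to 0.20, edgeR adjusted p = 0.633), and without KO replicate 1 it was 0.07. The interval did not reach the rise of *Myh11*, *Lmod1*, *Mylk* or *Myl9*, and it held that of *Smtn* (0.18).

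*Tagln* encodes transgelin, or SM22, and lies on chromosome 9 from 45929619 to 45936058, on the minus strand (ENSMUSG00000032085.5). It had 86, 62 and 91 counts in WT and 79, 98 and 102 counts in KO. These low counts overlapped between the genotypes (0.840 ± 0.0813 and 0.973 ± 0.113 CPM), and the log2 fold change of 0.21 did not pass the test (95% interval -0.12 to 0.54, edgeR adjusted p = 0.284). Of the 1988 exon bases of *Tagln*, 1349 (67.9%) also belong to exons of *Gm48529* and *Pcsk7*, which lie on the opposite strand. The strand setting of the counting is not stated, and reads shared by genes can stay unassigned, so the counts of *Tagln* cannot be read as its level. *Tnnc2*, the fast skeletal troponin C, has 74.0% of its exon bases in exons of the neighbour *Ube2c* and was counted at 0.693 CPM in WT, where its partner *Tnnt3* stood at 1368 CPM. Of the exon bases of *Smtn* 16.3% were shared with another gene, of *Mylk* 6.85%, and of the other 5 genes 0.

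*Myocd* encodes myocardin, the coactivator of SRF in smooth and cardiac muscle, and lies on chromosome 11 from 65176561 to 65269989 (ENSMUSG00000020542.18). It had 108, 78 and 104 counts in WT and 139, 106 and 134 counts in KO. Its levels of 1.14, 0.944 and 0.985 CPM in WT and 1.48, 1.11 and 1.38 CPM in KO overlapped through WT replicate 1 and KO replicate 2. The log2 fold change was 0.37 (95% interval 0.04 to 0.70, edgeR adjusted p = 0.0674), which did not pass the test after adjustment. It passed in 2 of 14 alternatives, with adjusted p-values between 0.0332 and 0.175.

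Per kilobase of exon, the levels of the 8 genes differed widely. *Myl9* was the highest at 159 ± 7.52 RPKM in WT and 228 ± 15.6 RPKM in KO, and *Smtn* followed at 46.4 ± 1.16 and 52.5 ± 0.688 RPKM. *Myh11* and *Mylk* could not be ordered in WT, at 6.24 ± 0.592 and 6.23 ± 0.239 RPKM, where their ranges overlapped. In KO *Myh11* lay above *Mylk*, at 13.1 ± 0.501 against 8.82 ± 0.597 RPKM, without overlap. Before division by length they stood at 99.6 and 99.4 CPM in KO, so this order rests on exon lengths of 7599 and 11263 bases. The length of *Mylk* joins the exons of all its forms. *Cnn1* exceeded *Lmod1* in WT (2.32 ± 0.110 against 1.47 ± 0.0396 RPKM), and their ranges overlapped in KO (2.19 ± 0.415 against 2.2 ± 0.173 RPKM). *Myocd* was the lowest, at 0.159 ± 0.0162 RPKM in WT and 0.206 ± 0.0297 RPKM in KO, and the *Tagln* values just above it carry the limit given with its counts.

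**Figure D2:**
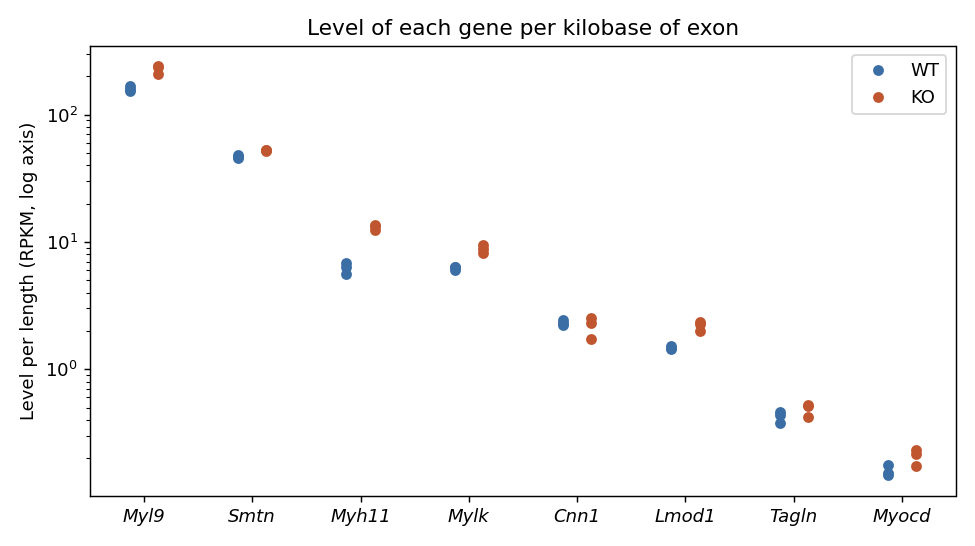
Level of each gene per kilobase of exon (RPKM, log axis) in the 3 WT (blue) and 3 KO (orange) libraries, ordered by the mean over all 6. *Myl9* and *Smtn* stand above the motor and kinase genes, and *Myocd* is the lowest in both genotypes.

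The difference between the change of *Myh11* and that of each other gene was examined as the log2 ratio of their counts within a library, a comparison chosen after the values were seen. The ratio of *Myh11* to *Mylk* was -0.47, -0.65 and -0.58 in WT and -0.05, 0.04 and 0.02 in KO, a difference of 0.57 (standard error 0.060). For *Myl9* the difference was 0.55 (standard error 0.095) and for *Lmod1* 0.50 (standard error 0.11). The largest was that to *Cnn1*, at 1.17 (standard error 0.20). In each of the 7 ratios the KO values lay above all WT values (exact two-sided permutation test, p = 0.10 each, the smallest p that 3 samples against 3 allow, and 0.10 after adjustment over the 7 ratios). This design cannot pass a threshold of 0.05. *Myh11* had the largest rise of the genes compared, so the upward direction of the ratios follows from its choice. The ratio to *Tagln* also carries the limit given with the *Tagln* counts.

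RefSeq promoter windows of GRCm38.p6, the assembly of mm10, were found for 5 of the 8 genes. Each covers 300 bases, 250 before and 50 after the annotated start. The CArG box was searched on both strands, which are equivalent for this palindromic motif, once exactly and once with at most 1 mismatch in its 10 positions. An exact match was present in 1.63% of the 32851 windows and a match with at most 1 mismatch in 21.1%. *Myl9* had an exact match 161 bases before the start (CCTAATAAGG) and a match with 1 mismatch 99 bases before it. *Lmod1* had 2 matches with 1 mismatch, 189 and 164 bases before its start. The windows of *Mylk* and *Smtn*, which also rose, and of *Cnn1*, which did not pass the test, held neither. A single start was searched for each gene, and those of *Mylk* (34784700 to 34784999 on chromosome 16) and *Smtn* (3539243 to 3539542 on chromosome 11) lie inside the annotated gene, so other starts of these genes were not searched. The windows of *Myl9* and *Lmod1*, which rose, and of *Cnn1*, which did not pass the test, are shown on the plus strand, with the matches in capitals, for *Myl9* at chr2:156775214-156775513, for *Lmod1* at chr1:135324563-135324862 and for *Cnn1* at chr9:22099003-22099302.
Myl9: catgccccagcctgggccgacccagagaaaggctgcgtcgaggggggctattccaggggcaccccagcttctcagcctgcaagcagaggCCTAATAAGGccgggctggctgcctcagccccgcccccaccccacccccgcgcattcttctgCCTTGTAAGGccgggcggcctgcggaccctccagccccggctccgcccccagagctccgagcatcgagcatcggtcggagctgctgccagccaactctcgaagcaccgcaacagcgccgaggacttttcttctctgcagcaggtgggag
Lmod1: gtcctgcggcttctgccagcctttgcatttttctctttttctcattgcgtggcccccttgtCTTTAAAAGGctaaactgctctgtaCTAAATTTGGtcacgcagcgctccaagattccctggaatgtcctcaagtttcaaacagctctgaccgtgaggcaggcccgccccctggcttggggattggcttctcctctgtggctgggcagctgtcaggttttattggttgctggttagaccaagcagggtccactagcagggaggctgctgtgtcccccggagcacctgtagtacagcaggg
Cnn1: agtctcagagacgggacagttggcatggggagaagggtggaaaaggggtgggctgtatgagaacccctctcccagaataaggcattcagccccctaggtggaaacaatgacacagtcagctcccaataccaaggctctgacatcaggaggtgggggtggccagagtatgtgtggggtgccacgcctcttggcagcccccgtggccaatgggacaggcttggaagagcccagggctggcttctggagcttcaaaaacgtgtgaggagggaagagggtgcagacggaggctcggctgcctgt
A match is a description of the letters and does not show binding, and the absence of one says only that these letters are not in the window.

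Each gene was set beside a paralogue of nonmuscle or skeletal muscle cells. *Myh9*, the nonmuscle myosin heavy chain, did not pass the test, with WT libraries at 318 ± 13.9 CPM and KO libraries at 313 ± 11 CPM (log2 fold change -0.02, 95% interval -0.13 to 0.09, edgeR adjusted p = 0.757). The log2 ratio of *Myh11* to *Myh9* was -2.56, -2.96 and -2.73 in WT and -1.65, -1.66 and -1.66 in KO, a difference of 1.1 (standard error 0.12). The KO values lay above all WT values (exact two-sided permutation test, p = 0.10, and 0.267 after adjustment over 8 pairs). *Mylk2*, the kinase of skeletal muscle, moved more than *Mylk* and rose from 37.4 ± 1.31 to 102 ± 15.7 CPM (log2 fold change 1.45, edgeR adjusted p = 2.85e-06). The log2 ratio of *Mylk* to *Mylk2* fell from 0.91 ± 0.0092 to -0.03 ± 0.32, without overlap (exact p = 0.10, adjusted 0.267).

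*Lmod1* and *Lmod3*, the leiomodin of skeletal muscle, both had a log2 fold change of 0.58, and *Lmod3* rose from 89.4 ± 3.33 to 134 ± 12.2 CPM. Their log2 ratio was -3.94 ± 0.036 in WT and -3.94 ± 0.047 in KO, and the difference had a standard error of 0.034 (exact permutation p = 1.0). *Lmod2*, another striated leiomodin, rose more, from 46.8 ± 4.26 to 117 ± 7.48 CPM (log2 fold change 1.31). Among the calponins, *Cnn2* fell from 142 ± 3.78 to 120 ± 4.15 CPM (log2 fold change -0.24, edgeR adjusted p = 0.00109), and *Cnn3*, the most abundant, fell from 456 ± 12.9 to 360 ± 10.1 CPM (-0.34). The transgelin paralogue *Tagln2* rose from 171 ± 5.26 to 216 ± 11.8 CPM (0.34). *Smtnl1*, a smoothelin-like gene of skeletal muscle, had the largest rise of the paralogues, from 16.2 ± 1.22 to 80.7 ± 15.7 CPM (2.32), and *Smtnl2* rose as well (0.26). *Mrtfa*, the myocardin-related coactivator present in most cells, rose from 79.5 ± 4.04 to 91.2 ± 2.85 CPM (0.20, edgeR adjusted p = 0.00666). *Myl12b*, a nonmuscle regulatory light chain, has 2 annotated genes of that symbol with shared exon bases and was counted at 4.69 ± 0.386 CPM, so its ratio to *Myl9* is uncertain, and *Myl12a* gave a smaller difference (0.28 against 0.55). Of all 16 paralogues, 10 rose and 2 fell.

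**Figure D3:**
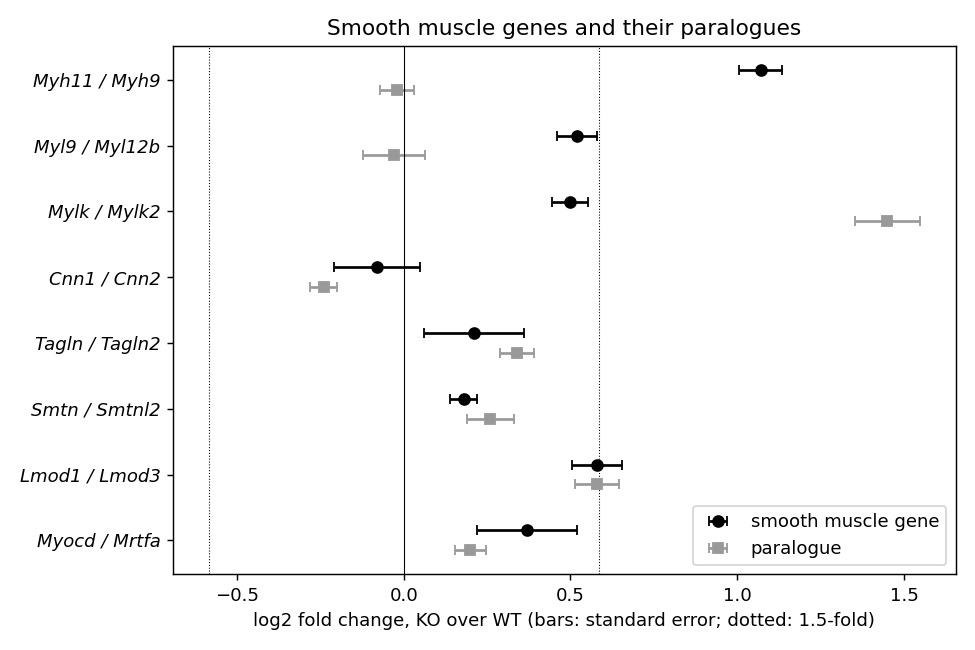
Log2 fold change of KO over WT (horizontal axis) for each smooth muscle gene (black circles) and its paralogue (grey squares), with standard errors. Dotted lines mark 1.5-fold. *Myh11* lies at 1.07 and *Myh9* at -0.02, while *Mylk2* at 1.45 lies beyond *Mylk* at 0.50.

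Other genes of the smooth muscle apparatus were examined as lists. Of 21 thin filament and cytoskeleton genes, 14 rose, 1 fell and 6 did not pass the test, with 7 called higher and a median log2 fold change of 0.30. *Synpo2*, an actin-binding gene of smooth and striated muscle that hosts *SYISL* in an intron, was at 137, 131 and 139 CPM in WT and 193, 220 and 229 CPM in KO and was called higher (log2 fold change 0.66, edgeR adjusted p = 2.89e-05). *SYISL* itself was not found by symbol in the table, so its deletion was not checked. *Synm*, an intermediate filament protein, had the largest rise, from 8.78 ± 0.876 to 21.9 ± 2.36 CPM (1.32). *Tpm1* rose from 1631 ± 164 to 3586 ± 445 CPM (1.14), and *Tpm2*, the most abundant of the list, from 2178 ± 145 to 4062 ± 341 CPM (0.90). These tropomyosins, *Des* and *Fhl1* are also abundant in skeletal muscle fibers. The smooth muscle actins moved apart. *Acta2*, the actin of vascular smooth muscle that fetal skeletal muscle also expresses, was at 425, 426 and 418 CPM in WT and 350, 390 and 369 CPM in KO, and was the 1 gene of the list that fell (log2 fold change -0.19, edgeR adjusted p = 0.0121). *Actg2*, the enteric smooth muscle actin, was at 12.3, 10.7 and 11.2 CPM in WT and 17.2, 22.2 and 22.2 CPM in KO, and was called higher (0.85, edgeR adjusted p = 1.33e-04). *Acta2* and *Fhl1* are named after their values were seen. So are *Actg2* and *Des* in this list, while the naming rule picked both for the visceral smooth muscle list below. Reads of near-identical actin genes can be split between them in counting.

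Of 20 transcription regulators, 18 were tested, and 9 rose and 2 fell, with a median of 0.09. No regulator was called higher. *Klf4*, which represses contractile genes in smooth muscle and is abundant in epidermis, fell from 158 ± 22.6 to 70.3 ± 3.84 CPM (log2 fold change -1.17, edgeR adjusted p = 7.19e-06), and *Klf5* fell from 62.3 ± 9.95 to 32.6 ± 1.09 CPM (-0.93). Both were highest in WT replicate 2, the library with the highest keratinocyte sum. *Mef2c*, the most abundant of the list, rose from 392 ± 17.3 to 482 ± 15.1 CPM (0.30). *Srf* itself rose from 91.8 ± 5.14 to 103 ± 2.36 CPM (0.16, edgeR adjusted p = 0.0200).

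Cell types around smooth muscle were examined by their markers. Of 12 pericyte markers, 8 rose and 1 fell, with a median of 0.25 and a summed level of 947 to 1008 CPM in WT and 1068 to 1121 CPM in KO. *Rgs5*, the most abundant, rose from 178 ± 6.16 to 221 ± 7.85 CPM (0.31), and *Higd1b* was the only one called higher (1.51, at 0.842 CPM in WT). The 1 that fell was *Ndufa4l2*, from 157 ± 18.4 to 108 ± 4.09 CPM (-0.54, edgeR adjusted p = 3.25e-04). Of 12 endothelial markers, 10 rose and 0 fell, with a median of 0.21 and sums of 963 to 991 CPM and 1133 to 1185 CPM. The most abundant, *Cdh5*, rose by 0.16, and *Vwf* was the 1 gene called higher (0.61). The 7 arterial endothelial markers had sums of 172 to 176 CPM in WT and 172 to 177 CPM in KO, with 3 higher, 1 lower and a median of 0.14, and *Efnb2*, the most abundant, did not pass the test (-0.11, edgeR adjusted p = 0.0538). Of 10 fibroblast and myofibroblast markers, 8 rose and 0 were called, with a median of 0.25 and sums of 46265 to 49199 CPM and 55949 to 57756 CPM. The most abundant, *Col1a1*, did not pass the test (0.16, edgeR adjusted p = 0.150). Sums of pericyte, endothelial and fibroblast markers thus did not overlap between the genotypes, and those of arterial endothelium did. Of all single genes tested, 55.9% did not overlap either, and each sum is weighted to its most abundant genes.

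Of 8 visceral smooth muscle markers, *Hand1* and *Nkx2-5* were too low to be tested, and 3 of 6 rose, with a median of 0.47 over the 6. Those that rose were *Des* (1.06), *Actg2* (0.85) and *Hhip* (0.69, named after its value was seen). *Barx1* (0.25), *Hand2* (-0.17) and *Foxf1* (-0.34) did not pass the test. Of the 6 markers of the arrector pili, the smooth muscle of hair follicles, 4 rose and 1 fell, with a median of 0.32. This list holds *Myh11*, *Acta2* and *Des*, and of its 3 other genes *Itga8* (0.19) and *Itga9* (0.46) rose and *Npnt* (0.08) did not pass the test.

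**Figure D4:**
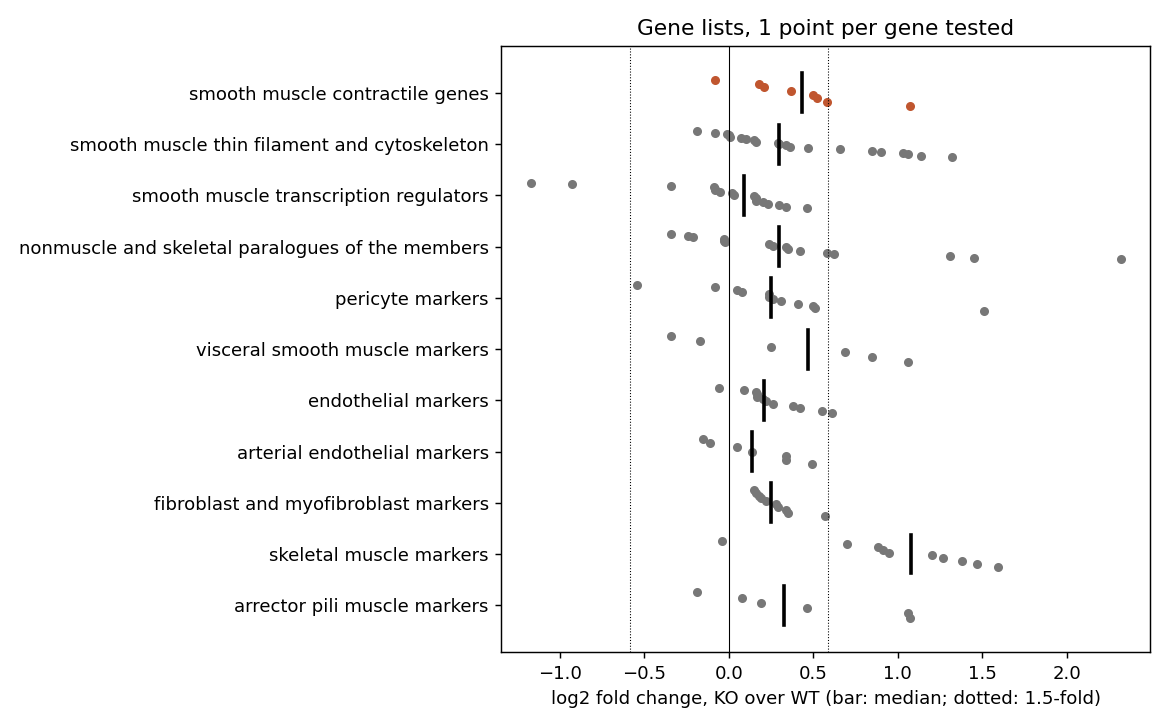
Log2 fold change of KO over WT (horizontal axis) of each gene tested, 1 point per gene, with the list median as a bar and 1.5-fold as dotted lines. The 8 smooth muscle genes (orange) have a median of 0.44, the pericyte, endothelial and fibroblast lists lie between 0.21 and 0.25, and the skeletal muscle list at 1.08. The visceral smooth muscle list lies at 0.47, arrector pili at 0.32, and the thin filament and paralogue lists at 0.30 each. Arterial endothelium lies at 0.14 and the transcription regulators at 0.09. The keratinocyte and adipocyte lists, with medians of -4.53 and 2.43, are outside the plot.

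Across the 6 libraries the mean log2 CPM of the 8 genes lay between 3.92 and 4.06 in the WT libraries and between 4.35 and 4.46 in the KO libraries. The 5 genes closest to this profile, among 12365 others with a mean of at least 5 CPM, were *Adgrl4*, an endothelial adhesion receptor, *Pfn2*, a profilin, *Postn*, the matrix protein periostin, the noncoding RNA *Hectd2os*, and *Mef2c* (Pearson r between 0.998 and 0.999 over 6 samples). These coefficients describe a profile with 1 step between the genotypes. *Adgrl4* rose from 17.9 ± 1.46 to 27.6 ± 1.29 CPM (log2 fold change 0.63), and *Pfn2* from 51.2 ± 3.69 to 82.4 ± 5.61 CPM (0.69).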

How the data were processed

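The authors trimmed reads with Trim Galore 0.6.6, mapped them to mm10 with HISAT2 2.2.1 and deposited raw counts per gene from featureCounts 2.0.1. Annotation, strand setting and whether pairs were counted are not given in the sources used here. Symbols and union exon lengths (for RPKM) came from GENCODE M21, where 55227 of 56262 IDs matched.

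Counts were analysed with edgeR 4.0.16 in R 4.3.3 (filterByExpr, TMM, quasi-likelihood F-test on genotype, Benjamini-Hochberg over 22071 genes), and the test was first tested on simulated data. Same-numbered samples had correlated deviations of -0.200, -0.134 and 0.0472 and were not treated as pairs. Log2 ratios within a library used a prior of 0.5 counts and an exact permutation test. Alternatives used DESeq2 1.42.0, limma 3.58.1, other scalings, filters and thresholds, a replicate block and leaving out each sample.

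The 8 genes and the lists were chosen with earlier results of these data known. 1 further list is not reported here. Named genes were the 8, their paralogues, from each list the 2 largest called rises and falls and the most abundant gene, and the 5 most alike in profile. Other genes the text names were chosen after their values were seen.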

Additional observations from a re-analysis of the deposited data

How the results depend on the processing

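The direction of *Myh11*, *Myl9*, *Mylk*, *Lmod1*, *Smtn*, *Myocd* and *Tagln* was the same in all 14 alternative fits, with log2 fold changes of 1.0 to 1.14 for *Myh11*, 0.45 to 0.59 for *Myl9*, 0.43 to 0.57 for *Mylk*, 0.51 to 0.65 for *Lmod1*, 0.11 to 0.25 for *Smtn*, 0.29 to 0.48 for *Myocd* and 0.14 to 0.31 for *Tagln*. *Cnn1* lay between -0.20 and 0.07 and changed sign without KO replicate 1 (0.07). With the replicate block, 1744 genes were called higher and 1777 lower, and of the 8 genes 1 and 0. The block changed no call at 1.5-fold among the 8.

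Of the 8 genes, 3 were called higher with upper-quartile factors and 5 with no fold-change threshold, and leaving out 1 sample gave 1 to 2. Of all genes tested, 2188 were called higher with upper-quartile factors and 1660 to 1953 without 1 sample. Over all genes, a fold change over 2 gave 774 higher and 1269 lower (1835 and 1852 at 1.5-fold), while dropping the fold threshold gave 4838 higher and 5098 lower. With library size as the only scaling, 0 endothelial markers were called higher and 1 pericyte marker lower. Leaving out 1 sample gave 1 to 2 endothelial markers and 0 to 1 fibroblast markers called higher, and 0 to 1 pericyte markers called lower.

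Another paralogue changed the ratios of *Myl9* (0.28 with *Myl12a*), *Mylk* (0.16 with *Mylk3*), *Tagln* (0.43 with *Tagln3*), *Smtn* (-2.13 with *Smtnl1*) and *Lmod1* (-0.74 with *Lmod2*), the ratios with *Mylk3* and *Tagln3* having the opposite sign. The ratio of *Lmod1* to *Lmod3* lay near 0, between -0.02 and 0.03 without 1 sample (0.01 without WT replicate 2 and without WT replicate 3, 0.03 without KO replicate 3). The cause of these differences was not tested. *Tagln* and *Myocd*, with 62 to 139 counts per library, had the largest standard errors of the 8 genes (0.15 each).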
